A study of Homo sapiens with 3 samples.

Results

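The genes examined here encode 9 noncollagenous proteins of the bone matrix: SPP1, IBSP, DMP1, MEPE, DSPP, BGLAP, MGP, SPARC and OMD. They were picked by name, out of 20163 annotated protein-coding genes, and every RUNX2 or CBFB peak within 25 kb of their gene bodies was collected. The peaks came from chromatin immunoprecipitation with sequencing (ChIP-seq) in untreated SAOS2 cells, a human osteosarcoma cell line that lacks p53, kept below 20 passages. The series had 3 libraries, and they were a RUNX2 ChIP with a custom-made antibody, a CBFB ChIP with a commercial antibody, and input DNA without antibody, which was not analysed here. Each antibody had 1 library of 1 line, so there were no replicates, and counts, positions and score ranks are given without a test. The lists held 9941 RUNX2 peaks and 27246 CBFB peaks with no read counts, so the depth is unknown, and the osteoblastic character of the cells could not be checked against expressed markers.

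Mineralized bone is a collagen scaffold to which cells add acidic and calcium-binding proteins that control how mineral crystals form and how cells attach. The SIBLING proteins (small integrin-binding ligand, N-linked glycoproteins) are encoded by 5 neighbouring genes on chromosome 4. RUNX2 is the master transcription factor of osteoblasts, and CBFB is its non-DNA-binding partner, which also serves RUNX1 and RUNX3. Several of these genes, with osteocalcin (BGLAP) as the best known case, are textbook targets of RUNX2, which was first recognised in osteoblasts through a site in the osteocalcin promoter. RUNX proteins recognise the core TGTGGT, or ACCACA when read on the other strand.

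Of the 9 genes, only SPARC had a RUNX2 peak within 25 kb, a share of 11.1% (exact Clopper-Pearson 95% interval 0.281 to 48.2), while 36.0% of all protein-coding genes had one. A CBFB peak lay within 25 kb of 5 of the 9 genes (IBSP, MEPE, BGLAP, SPARC and OMD), or 55.6% (21.2 to 86.3), against 62.2% of all protein-coding genes. SPP1, DMP1, DSPP and MGP had no peak of either list. These intervals cover counting error only, for genes that were chosen by name. They treat the genes as independent, although the 5 SIBLING genes are neighbours and IBSP and MEPE share a CBFB peak. The intervals can therefore be too narrow. The 9 genes are short, from 1134 to 25880 bp, and among the 9187 protein-coding genes of that length range the shares were 30.7% for RUNX2 and 56.1% for CBFB.

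The sequences below show the RUNX cores, in capitals, that carried or lacked a peak at these genes, all from GRCh37 (hg19). The first set holds 60 bases around the core nearest the midpoint of the RUNX2 peak of SPARC and of the highest-scoring CBFB peak of BGLAP, IBSP and MEPE, written on the plus strand.

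SPARC, RUNX2 peak, chr5:151061908-151061967: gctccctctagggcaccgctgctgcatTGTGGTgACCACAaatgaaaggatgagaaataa

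BGLAP, CBFB peak, chr1:156211785-156211844: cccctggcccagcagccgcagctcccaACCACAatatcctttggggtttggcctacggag

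IBSP, CBFB peak, chr4:88705246-88705305: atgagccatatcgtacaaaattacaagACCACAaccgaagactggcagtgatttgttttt

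MEPE, CBFB peak inside IBSP, chr4:88724591-88724650: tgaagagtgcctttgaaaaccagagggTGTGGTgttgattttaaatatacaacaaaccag

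The second set holds the cores found within the promoters of genes that had no peak there, with the same length, also on the plus strand, which is the strand of these genes. The SPP1 and MEPE promoters are those of their canonical transcripts, which start inside the annotated gene bodies.

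SPP1, chr4:88896697-88896756: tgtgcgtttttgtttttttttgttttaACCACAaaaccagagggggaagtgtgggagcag

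DMP1, chr4:88571239-88571298: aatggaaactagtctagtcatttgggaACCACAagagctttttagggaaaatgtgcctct

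MEPE, chr4:88753937-88753996: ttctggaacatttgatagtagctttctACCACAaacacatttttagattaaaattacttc

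**Figure D1:**
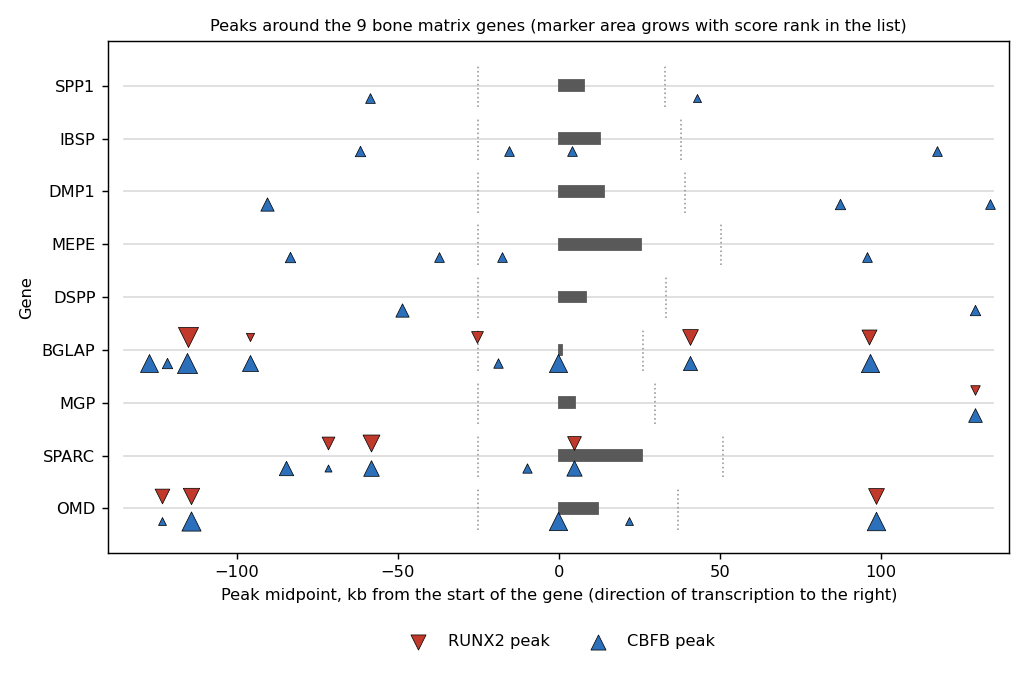
Midpoints of RUNX2 peaks (red, pointing down) and CBFB peaks (blue, pointing up) around the 9 genes, in kb from the start of each gene with transcription to the right. Grey boxes are gene bodies, dotted lines mark 25 kb to either side, and marker area grows with the score rank inside the list. The only red marker between dotted lines is at SPARC, and the large blue markers at the gene start are those of BGLAP and OMD.

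SPARC encodes osteonectin, a calcium-binding and collagen-binding glycoprotein and an abundant noncollagenous protein of bone. The gene (ENSG00000113140, chromosome 5, 151040657 to 151066536, minus strand) held a RUNX2 peak from 151061610 to 151062271 with a score of 73.36. Scores are those of the peak caller and are read here as p-values on a scale of -10 log10, so a higher score is a stronger call. The SPARC score was equal to or above that of 39.6% of the RUNX2 list, whose median was 84.11. The peak lay wholly inside intron 1 of the 9 introns of SPARC, with its midpoint 4596 bp downstream of the gene start. All 662 bp were covered by a CBFB peak from 151061449 to 151062472, with a score of 126.06 and a rank of 51.8% in its own list. The midpoints of these peaks were 20 bp apart, and the shared bases were 64.65% of the CBFB peak. Across the lists, 94.2% of all RUNX2 peaks overlapped a CBFB peak by 1 bp or more, so this overlap is what most RUNX2 peaks had. The paper that reported these data gives a lower share of RUNX2 peaks overlapping CBFB peaks, and does not state its overlap rule.

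The RUNX2 peak in SPARC held 3 copies of the core. Of these, 2 formed the inverted pair TGTGGTgACCACA printed above, in which 1 base separates a core from its reverse complement. The nearer of them, at 151061935 to 151061940, had its centre 3 bp from the peak midpoint. A core within 100 bp of the midpoint was found in 43.2% of all RUNX2 peaks. The inverted pair, with any base between the cores, was much less common. It had 300 copies in the genome, of which 5 lay inside a RUNX2 peak and 30 inside a CBFB peak, or 1.67% and 10.0%. Of all single cores in the genome, 0.769% lay inside a RUNX2 peak and 2.36% inside a CBFB peak. The search for the pair was added after the sequence had been seen. The SPARC pair that prompted it is among the 5 and the 30, so these shares are not independent of it.

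SPARC had another CBFB peak upstream, from 151075901 to 151076836, inside the noncoding gene CLMAT3 and 9365 bp from the gene body. It had a score of 59.04, a rank of 10.9%, and no RUNX2 peak. The next RUNX2 peaks on the upstream side both had their midpoints in annotated UTRs of ATOX1, a copper chaperone gene. They lay 57.92 and 71.41 kb from SPARC, with scores of 107.93 and 67.54, and both overlapped a CBFB peak. On the downstream side the nearest RUNX2 peak was 1023 kb away, in SYNPO.

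BGLAP encodes osteocalcin, the small vitamin K-dependent protein that binds calcium through its Gla residues and is a marker of mature osteoblasts. The gene (ENSG00000242252, chromosome 1, 156211975 to 156213108, plus strand) is only 1134 bp long and also forms the last part of the readthrough gene PMF1-BGLAP. A CBFB peak from 156211002 to 156212444 spanned its start, with a width of 1443 bp and its midpoint 252 bp upstream. Its score of 262.66 was at or above 78.5% of the CBFB list. No RUNX2 peak overlapped it. Among the 1500 CBFB peaks with a score within 10% of this value, 870 overlapped a RUNX2 peak, or 58.0%, so that 630 others were also without one.

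The core inside this CBFB peak was the only copy there, at 156211812 to 156211817, and 91 bp from the midpoint. It ended 158 bp upstream of the start of BGLAP and had the longer form AACCACA, which on the other strand reads as TGTGGTT. The 250 bases before the gene start show it in the setting of the whole proximal promoter, with the core in capitals.

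BGLAP promoter, chr1:156211725-156211974, plus strand: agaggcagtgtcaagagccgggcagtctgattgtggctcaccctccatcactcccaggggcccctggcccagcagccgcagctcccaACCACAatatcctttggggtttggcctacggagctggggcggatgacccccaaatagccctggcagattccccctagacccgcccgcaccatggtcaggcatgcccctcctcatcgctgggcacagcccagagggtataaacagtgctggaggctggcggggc

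The nearest RUNX2 peak to BGLAP fell just outside the limit of 25 kb, with 25076 bp between it and the gene body. It ran from 156186232 to 156186899 in intron 1 of PMF1 (and of PMF1-BGLAP), 3767 bp from the nearest start, which was that of PMF1. Its score was 62.74, at or above 25.4% of the list, and it overlapped no CBFB peak. Inside the limit, besides the peak at the gene start, was a CBFB peak in the same intron, from 156192608 to 156193552, 18423 bp from BGLAP, with a score of 59.6 and a rank of 11.6%. Within 100 kb there were 4 RUNX2 peaks around BGLAP, with scores of 52.12, 62.74, 90.91 and 83.05 in order along the chromosome. The last 2 lay near the starts of SMG5 and TSACC, at 135 and 143 bp. None of the 4 had BGLAP as the gene with the nearest start.

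OMD encodes osteomodulin (osteoadherin), a keratan sulphate proteoglycan of the small leucine-rich family that binds mineral and integrins. The gene (ENSG00000127083, chromosome 9, 95174662 to 95186753, minus strand) lies within intron 5 of CENPP, a centromere protein gene that runs the other way. Its start was spanned by a CBFB peak from 95186390 to 95187639 with a score of 278.09, the highest at any of the 9 genes, and a rank of 80.0%. The midpoint lay 261 bp upstream of OMD, and no RUNX2 peak overlapped it. Of 1406 CBFB peaks with a score within 10% of it, 60.7% overlapped a RUNX2 peak. The CBFB peaks at the starts of BGLAP and OMD were thus alike in score and position, and neither overlapped a RUNX2 peak.

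A second CBFB peak, from 95164624 to 95165440, lay 9222 bp beyond the end of OMD in intron 2 of its neighbour OGN, which encodes the related proteoglycan osteoglycin. It had a score of 53.08, a rank of 3.77%, and a start of OGN at 1828 bp. The nearest RUNX2 peaks were 85.85 kb away on the downstream side, in the coding sequence of CENPP at 73 bp from its start, and 113.9 kb away on the upstream side, near ECM2. Both overlapped CBFB peaks.

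MGP encodes matrix Gla protein, which keeps cartilage and arteries from calcifying. The gene (ENSG00000111341, chromosome 12, 15033798 to 15038791, minus strand) was the most isolated of the 9 genes from CBFB. The nearest CBFB peak was 123734 bp from it, a distance reached by 16.0% of protein-coding genes, and the nearest RUNX2 peak was 123887 bp away, reached by 36.5%. These were overlapping peaks at the same place, downstream of MGP, with ranks of 38.9% and 11.8% in their lists. On the upstream side another overlapping pair lay 201.9 and 202.0 kb away, with higher ranks of 82.2% for CBFB and 74.8% for RUNX2.

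The 5 SIBLING genes lie in the same direction on the plus strand of chromosome 4. In order along the chromosome they are DSPP, DMP1, IBSP, MEPE and SPP1. DSPP (ENSG00000152591, 88529681 to 88538025) encodes the precursor of the main dentin phosphoproteins. DMP1 (ENSG00000152592, 88571432 to 88585513) encodes an acidic osteocyte protein that acts on phosphate balance. IBSP (ENSG00000029559, 88720706 to 88733587) encodes bone sialoprotein, a nucleator of hydroxyapatite. MEPE (ENSG00000152595, 88742550 to 88767966) encodes an osteocyte phosphoglycoprotein. SPP1 (ENSG00000118785, 88896819 to 88904684) encodes osteopontin, a cell-attachment protein that restrains crystal growth.

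From 25 kb before DSPP to 25 kb after SPP1, a span of 425.0 kb (88504681 to 88929684), the RUNX2 list had 0 peaks and the CBFB list had 4. As the lists hold called peaks only, with scores of 50 or more, binding that gave a lower score was not detectable. The RUNX2-free stretch was longer than the cluster. It ran for 1034 kb, from the peak at the start of NUDT9 (score 52.66) to the peak at the start of HERC5 (score 65.11), and held 10 protein-coding genes. Stretches of that length were not rare. On chromosome 4, 45 of 376 gaps between neighbouring RUNX2 peaks were as long, or 12.0%, and 26.2% of all protein-coding genes lay inside gaps of this length or more. Chromosome 4 was also poorer in RUNX2 peaks near genes, since 27.9% of its 761 protein-coding genes had one in the 25 kb window.

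**Figure D2:**
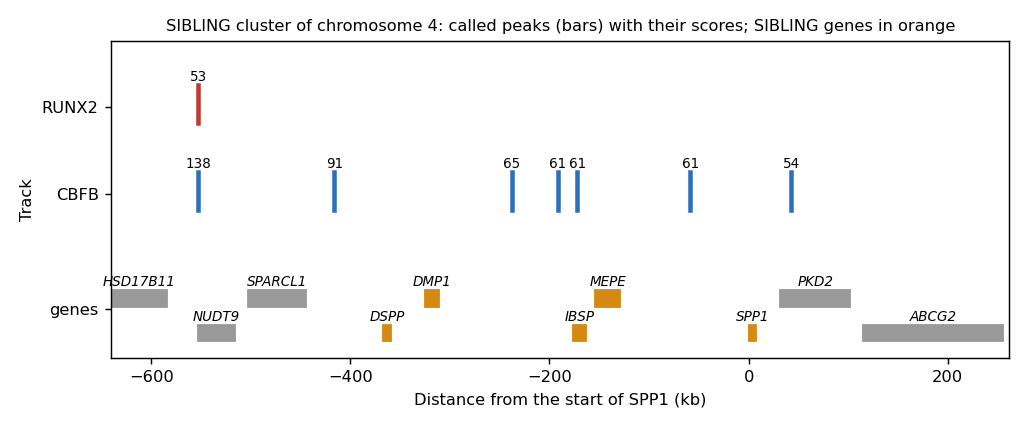
Peaks of both lists around the SIBLING cluster, in kb from the start of SPP1, with the 5 SIBLING genes in orange and other protein-coding genes in grey. Numbers above the bars are rounded peak scores. The RUNX2 track holds 1 peak, at NUDT9, and the 4 CBFB peaks of the cluster score between 60.75 and 65.01.

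The 4 CBFB peaks of the cluster were all low in the list and none overlapped a RUNX2 peak. Their scores were 65.01, 60.79, 60.75 and 60.82, and their ranks ran from 12.9% to 16.8%. In the whole list, 5.77% of the CBFB peaks in the lowest of 5 score groups overlapped RUNX2. The peak at 88724493 to 88725313 was the only one inside a SIBLING gene. It lay wholly in intron 4 of the 6 introns of IBSP, 4197 bp from the gene start, and as it was also 17237 bp upstream of the MEPE gene body it gave MEPE its only peak. A core lay 283 bp from its midpoint. The peak from 88704991 to 88705713 was intergenic, 14993 bp upstream of IBSP, with a core at 77 bp from the midpoint. The other 2, at 61.3 kb upstream of IBSP and 58.3 kb upstream of SPP1, were beyond 25 kb from any SIBLING gene and held no core.

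The distances from the RUNX2 list were large for all 5 genes. The nearest RUNX2 peak was 185.3 kb from DSPP, 227.1 kb from DMP1, 376.4 kb from IBSP, 398.2 kb from MEPE and 473.2 kb from SPP1. For the first 4 of these genes it was the peak at NUDT9, and for SPP1 the peak at HERC5. Of all protein-coding genes, 28.7% were at least as far from a RUNX2 peak as DSPP and 13.3% as far as SPP1. The nearest CBFB peak to SPP1 was 34.71 kb downstream, in intron 1 of PKD2, with a score of 53.69.

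The presence of the motif and the presence of a peak were then set side by side. The promoter was taken as 250 bases before and 50 bases after the start of the Ensembl canonical transcript. The core was found in 4 of the 9 promoters (SPP1, DMP1, MEPE and BGLAP) and in 10.8% of all protein-coding promoters. The longer form AACCACA was found in 3 (SPP1, DMP1 and BGLAP) and in 3.39% of all promoters. The cores ended 137 bp upstream of the canonical start in SPP1, 161 bp in DMP1, 152 bp in MEPE and 158 bp in BGLAP. No core was in the promoters of IBSP, DSPP, MGP, SPARC or OMD. That says only that these letters were absent from the window. At OMD, the core inside the CBFB peak at the gene start lay at 95187031 to 95187036, just beyond the upstream end of the window at 95187003.

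Of the 3 promoters with the longer form, a CBFB peak touched that of BGLAP and no RUNX2 peak touched any. Of all 683 promoters with this form, 31.2% touched a CBFB peak and 15.2% touched a RUNX2 peak. For all protein-coding promoters these shares were 22.0% and 8.00%. Promoters of 2 of the 9 genes, BGLAP and OMD, touched a CBFB peak. Promoters of SPP1 and DMP1 thus carried the same letters as that of BGLAP, but touched no peak of either list. Of the 3912 CBFB peaks that touched a protein-coding promoter, 35.9% overlapped a RUNX2 peak.

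Over the whole windows of 25 kb around the gene bodies, cores were plentiful and mostly outside peaks. The windows held from 37 cores at DMP1 to 61 at SPARC. Counted gene by gene, with the bases shared by the windows of IBSP and MEPE and of DSPP and DMP1 counted for both genes, 3 of 441 cores lay inside a RUNX2 peak, all in SPARC, and 13 lay inside a CBFB peak. These are shares of 0.680% and 2.95%, beside 0.769% and 2.36% in the whole genome. The window of the SIBLING cluster alone held 306 cores, of which 2 were in a CBFB peak.

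The peaks near the 9 genes formed 9 distinct calls, 1 of RUNX2 and 8 of CBFB. By score the CBFB peaks comprised 5 weak peaks below 65, at ranks from 3.77% to 12.9%, and 3 stronger ones at SPARC, BGLAP and OMD, at ranks of 51.8%, 78.5% and 80.0%. The stronger 3 had a core within 100 bp of the midpoint, as had 1 of the weak 5, which makes 4 of 8 beside 41.6% of all CBFB peaks. Cores in repeated sequence were not set apart in these counts. The 30 bases around the core nearest the midpoint had 4 exact copies in the genome for the stronger OMD peak, and 1 for each other peak. All 8 held a core somewhere, as did 80.9% of all CBFB peaks. The AP-1 motif TGANTCA, searched for on both strands, was anywhere in the peak in 5 of the 8 and in 42.1% of all CBFB peaks. Only the CBFB peak upstream of SPARC had this motif within 100 bp of the midpoint, and the share over all CBFB peaks is not given for that window. The motif was not in the RUNX2 peak of SPARC. An overlap with RUNX2 was found for 1 of the 8, beside 33.8% of the CBFB list.

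**Figure D3:**
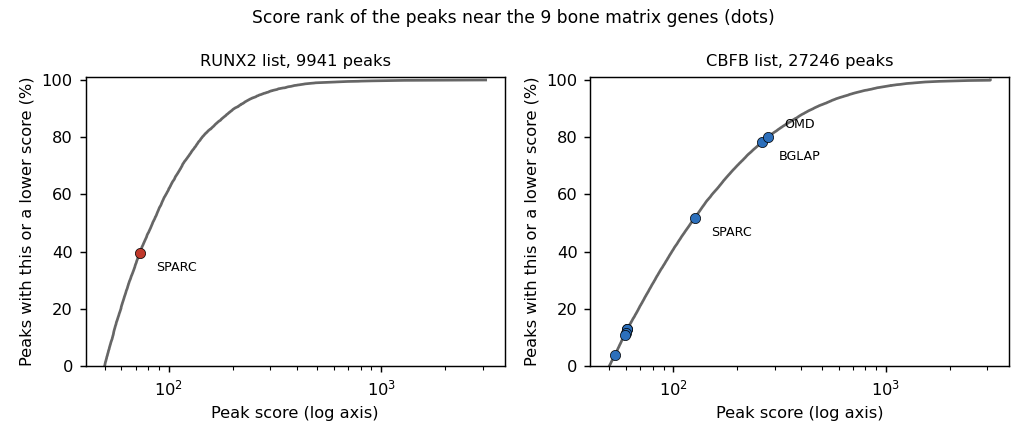
Score rank of the peaks near the 9 genes (dots) on the cumulative curve of each list, with the score on a log axis. The RUNX2 peak of SPARC is at 39.6% of its list, the CBFB peaks of BGLAP and OMD are at 78.5% and 80.0%, and the unlabelled CBFB dots are the 5 peaks that score below 65.

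Finally, the 9 genes were set beside other matrix genes. A list of 30 noncollagenous genes had a RUNX2 peak within 25 kb at 11 genes, or 36.7% (19.9 to 56.1), and a CBFB peak at 16. By group, a RUNX2 peak was found at 4 of 10 small leucine-rich proteoglycan genes, with the highest score of 189.32 at EPYC, and at 7 of 14 adhesive glycoprotein genes, with the highest score of 335.45 at FN1 (fibronectin). It was found at 0 of 6 enamel and saliva genes, which are relatives of the SIBLING genes elsewhere on chromosome 4 and on the X chromosome. Of 44 collagen genes, 27 had a RUNX2 peak, or 61.4% (45.5 to 75.6), with the highest score of 1197.48 at COL6A1. The collagen genes are long, with a median body of 145.0 kb against 12.1 kb for the 9 genes. The median was 77.9 kb for the adhesive glycoprotein genes, 18.5 kb for the proteoglycan genes and 11.5 kb for the enamel and saliva genes. The part of body length in these differences was not tested. The RUNX2 interval of the 9 genes, 0.281 to 48.2, treats neighbouring genes as independent. It held the share of the other list, while the collagen share of 61.4% lay above it and the collagen interval overlapped it only from 45.5 to 48.2. Overlap of intervals does not measure a difference between shares, and the difference was not tested.

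The shares rose with the distance allowed. Within 100 kb, 3 of the 9 genes had a RUNX2 peak (BGLAP, SPARC and OMD), against 59.2% of all protein-coding genes, and 8 had a CBFB peak, against 81.4%. MGP was the gene without a CBFB peak. The SIBLING genes contributed 0 of 5 for RUNX2 and 5 of 5 for CBFB.

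**Figure D4:**
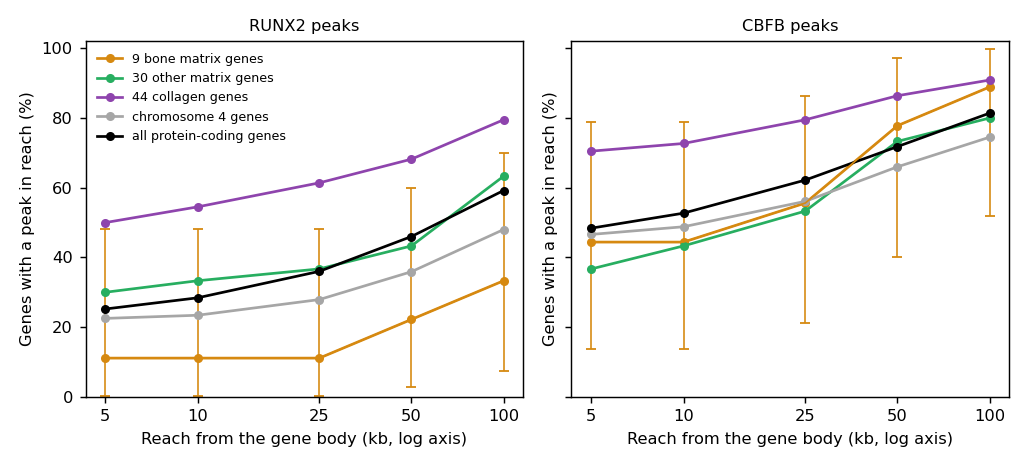
Share of genes with a RUNX2 peak (left) or a CBFB peak (right) against the distance allowed from the gene body, on a log axis, for the 9 genes (orange, with exact 95% intervals), 30 other matrix genes, 44 collagen genes, genes of chromosome 4 and all protein-coding genes. The orange line for RUNX2 is at 11.1% up to 25 kb and at 33.3% at 100 kb, below the other lines, with intervals that reach most of them.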

How the data were processed

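RUNX2 and CBFB ChIP-seq peaks of SAOS2 cells were analysed, 1 library each. The score of each peak, deposited by the authors with its position, came from MACS. The submitters' processing notes name MACS 1.4.1, CASAVA 1.8.2 and hg19. The aligner, the calling limit, the depth and the use of the input are not given in the sources used here. As such a score depends on depth, it was ranked within a list and never compared between lists.

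Gene models were taken from GENCODE release 44, lifted to GRCh37 (chromosomes 1 to 22, X and Y), and sequence was read from GRCh37. Coordinates count from 1. A peak was counted for a gene when any base lay within 25 kb of its body, and peaks overlapped when they shared 1 bp or more. Motifs were searched on both strands. Some peak sequences are not reported here. Intervals are exact Clopper-Pearson 95% intervals. The genes, gene lists and motifs were chosen with earlier results of these data known. All 9 genes are named, and of other lists the gene with the highest RUNX2 score. The other proteoglycan genes in the closing section were named after their values were seen. Lookups of intervals were tested on simulated peaks, and the search for the core on a short made-up sequence. The searches for the longer form, the inverted pair and AP-1 were not tested in this way. Scripts used Python 3.11.15, numpy 2.4.6, scipy 1.17.1 and matplotlib 3.10.9.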

Additional observations from a re-analysis of the deposited data

How the results depend on the processing

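RUNX2 peaks were found near 1 gene in the settings of 5 kb, 10 kb, peak midpoints, canonical transcripts and nearest starts. The number with a CBFB peak was 4 in place of 5 in these settings, except with peak midpoints, where it was 5. Within 50 kb there were 2 such genes with 3 peaks, 2 of them shared with CBFB, and within 100 kb 3 genes with 8 peaks. Within 100 kb, 8 genes had a CBFB peak, with 19 peaks, and within 5 kb there were 4 CBFB peaks. With peaks at or above the median score of their list, 0 genes had a RUNX2 peak (0 peaks, 0 of them overlapping), and 3 genes had a CBFB peak (3 peaks). With the 9941 top CBFB peaks, 2 genes had a CBFB peak (2 peaks), and 0 RUNX2 peaks overlapped, as the SPARC peak of CBFB dropped out. The core was in 8 CBFB peaks when whole peaks were searched, in 2 within 50 bp of the midpoint and, as TGTGGTT, in 1, and in 0 RUNX2 peaks in that form. The score rank of the RUNX2 peak in SPARC was 40.1% on chromosome 5 and 70.9% among the fifth of RUNX2 peaks closest in width, both tried after seeing the data. With 1 library per antibody, no call has a replicate check, and a gene without a peak cannot be told from a gene bound below the calling limit.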

Other observations

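At OMD, the neighbouring proteoglycan genes of chromosome 9 differed in their peaks. ECM2 had 2 RUNX2 and 2 CBFB peaks within 25 kb, OGN had 0 and 2, and ASPN had 0 and 0. In the proteoglycan cluster of chromosome 12, EPYC had 4 RUNX2 and 5 CBFB peaks, KERA had 1 and 1, LUM had 0 and 5, and DCN had 0 and 0. Apart from EPYC, these genes were named after their values were seen.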
